A study of Homo sapiens with 4 samples.

Results

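The proteasome genes described here are the rows of the count table whose symbol begins with PSM, carries a letter from A to G and ends in a number. The rule found 48 genes among the 57992 rows. By textbook roles they comprise 8 alpha and 8 beta subunits of the 20S core, counted apart from 3 immunoproteasome subunits (PSMB8, PSMB9 and PSMB10). Beside the standard subunits, the alpha and beta rows include PSMA8, known from testis, and PSMB11, known from the thymus cortex. The others are 6 ATPases and 11 other subunits of the 19S cap, 5 activators or inhibitors of the core, and 7 assembly chaperones. A filter on low counts kept 46 of the 48 for testing, within 15193 genes in all. The rule read names only and no measured value, and both removed genes are named below.

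Poly(A) RNA was sequenced from MOLM13 cells, an established human acute myeloid leukaemia line, in a derivative labelled VEN-R, the usual shorthand for venetoclax-resistant. Every culture received doxycycline, which induced a control short hairpin RNA (shRNA) in 2 libraries, with the genotype given as WT, and a hairpin against the arginine methyltransferase gene PRMT9 in the other 2, given as PRMT9 knockdown. There was thus no library without doxycycline and none from cells without the VEN-R background, and the labels give neither the dose and duration of doxycycline nor whether a line was 1 clone. The labels number the libraries 1 and 2 in each group and do not say whether these are separate cultures, repeats or different hairpin sequences, so p-values measure only the spread between these libraries.

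The total count ranged from 28592902 to 33845172 per library. Reads of PRMT9 numbered 398 and 406 with the control hairpin but 81 and 78 with the PRMT9 hairpin, a log2 fold change of -2.48 (SE 0.12, edgeR adjusted p = 1.13e-11). All 11 myeloid markers on the list used were detected, among them CD33, FLT3 and LYZ. After PRMT9 knockdown 10 were higher (90.9%) and 1, the granule enzyme gene MPO, was lower (9.09%). Of all genes tested, 33.4% were higher and 34.5% lower. The summed level of the 11 markers was 1668 and 1659 CPM (counts scaled to a common library size) in the controls against 2551 and 2549 CPM. Of 8 epithelial and stromal markers, EPCAM and KRT19 were at 0 in every library. Of the 5 tested, 4 were higher (KRT8, KRT18, PDGFRB and PECAM1), against 33.4% of all genes tested. PDGFRB had 6 and 3 counts in the controls and 24 and 41 after knockdown, so it passed the count filter only through the PRMT9 hairpin libraries. The list summed to 168.8 and 168.6 CPM in the controls and to 278 and 281 CPM after knockdown, mostly from PECAM1, which myeloid cells also express. The 6 lymphoid markers summed to 15.8 and 14.8 CPM against 26.9 and 28.1 CPM, nearly all of it from NKG7, and the 4 erythroid markers had no count in any library. The part of these shifts in the proteasome values was not tested.

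The proteasome is the protease that degrades proteins tagged with ubiquitin. Its 20S core is a stack of rings in which alpha subunits gate the entry and beta subunits cut the chain, and the 19S cap recognises ubiquitin, removes it and unfolds the substrate with a ring of ATPases. In cells exposed to interferon, and constitutively in many blood cells, the immune subunits PSMB9, PSMB10 and PSMB8 replace the catalytic subunits PSMB6, PSMB7 and PSMB5, and the ring-shaped activator of PSME1 and PSME2 can take the place of the cap, which alters the peptides offered on MHC class I. Transcription of the standard subunits is known to be raised together by the factor NFE2L1 when proteasome activity is short. Drugs that block the core are used in blood cancers.

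PRMT9 knockdown was accompanied by lower RNA of most of the standard proteasome and by higher RNA of its immune subunits. Of the 46 tested genes, 39 fell (84.8%), against 34.5% of all genes tested, and 5 rose (10.9%), against 33.4% of all genes tested (edgeR's quasi-likelihood test, adjusted p below 0.05 over all genes). In all, 68.0% of the genes tested changed, so a call alone is common in these data. The median log2 fold change of the 46 genes was -0.52, with a range from -1.24 to 0.49, and that of all genes tested was 0.00. In 39 genes both PRMT9 hairpin libraries lay below both controls, against 41.7% of all genes tested, in 6 they lay above, against 41.7% again, and in 1, PSMA6, the groups overlapped. Relative to the controls' mean, the median of the 46 genes was -0.53 in PRMT9 hairpin library 1 and -0.51 in library 2, so both libraries of the group shared the shift. With DESeq2 3 of the 46 genes rose and 36 fell, while of all 15193 genes 3990 rose and 4360 fell. Without control library 1 the median of the 46 genes was -0.55. Upper-quartile scaling raised the median of all genes by 0.09. With it 6 of the 46 genes rose and 36 fell, while of all 15193 genes 5933 rose and 4443 fell. Against a minimum change, a rise of 25% or its inverse, edgeR called 1 rise, in PSMB9, and 27 falls. Of all 15193 genes it called 3051 rises and 2861 falls in that setting. In poly(A) RNA from whole cultures, fewer cells expressing a gene and less of its RNA per cell cannot be told apart.

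Together the 48 genes took 0.468% and 0.467% of all counts in the controls and, after knockdown, 0.341% and 0.340%. Their summed level fell by 27.9%, from 4695 and 4712 CPM to 3391 and 3393 CPM. The classes differed in size and direction. The summed level changed by -35.3% for the 11 non-ATPase subunits of the cap, -30.2% for activators and inhibitor, -28.7% for alpha subunits, -27.7% for ATPases, -23.3% for standard beta subunits and -19.1% for chaperones, and by 19.4% for the 3 immune subunits (from 133 and 135 CPM to 159.7 and 160.4 CPM). The order of the classes depended on the unit: in summed RPKM, which scales by exon length, activators and inhibitor changed by -16.5%, the smallest fall of the 6 classes that fell. No test was made between classes. The classes' medians on the log2 scale were -0.69, -0.42, -0.51, -0.56, -0.52, -0.36 and 0.23 in the same order.

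**Figure D1:**
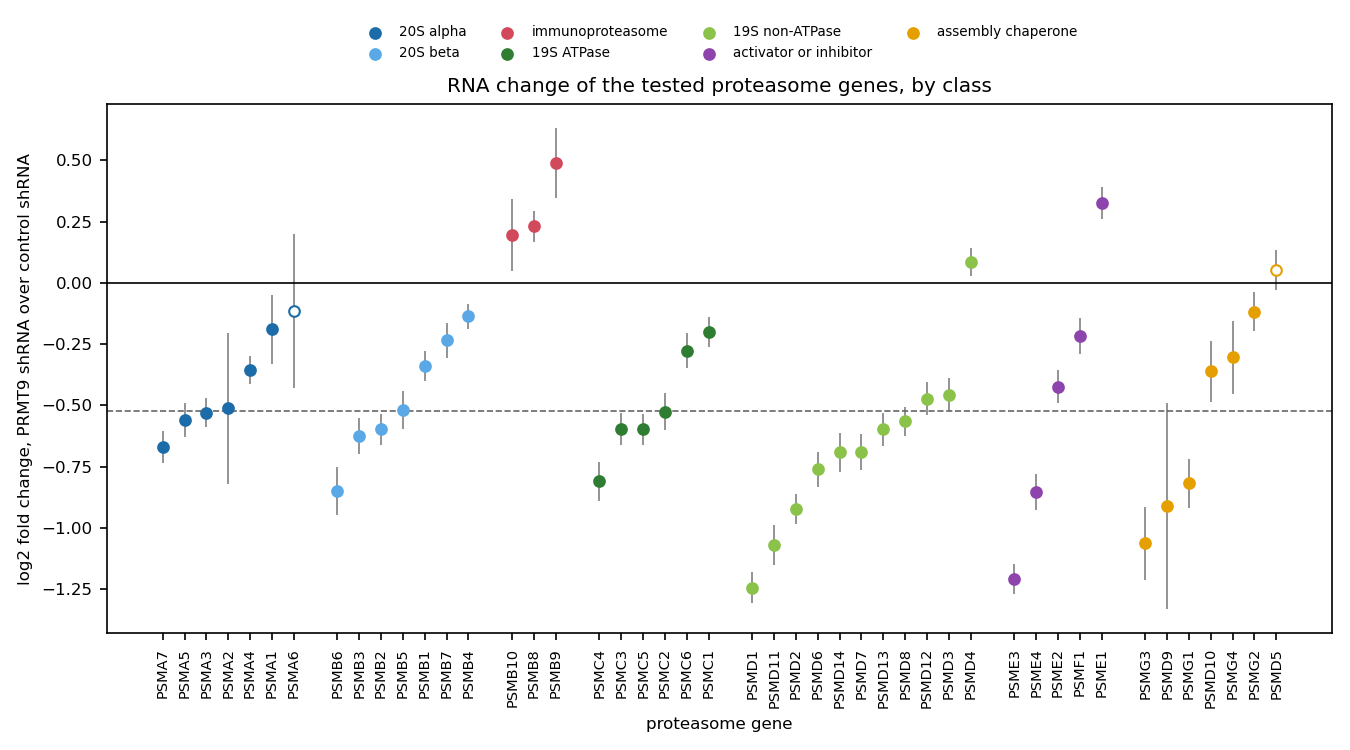
Log2 fold change (vertical axis, PRMT9 shRNA over control shRNA) of the 46 tested proteasome genes, ordered within each class by size. Points are edgeR estimates from 2 libraries per group, bars are 95% confidence intervals, filled points passed the test, open points (PSMA6 and PSMD5) did not, and the dashed line is the median of the 46 genes, -0.52; among filled points the 3 immune subunits, PSMD4 and PSME1 lie above 0.

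Promoter sequences are shown for 7 genes because they include genes that fell and genes that rose, and carry short motifs tied to the factors named above. Windows of 300 bases, from 250 before to 50 after a start, were taken from RefSeq (GRCh38.p14) for 42 of the 48 genes, of which 8 have more than 1 window. PSMA7, PSMB1, PSMB6, PSMB7, PSMD4 and PSMG3 were not matched. Each line below gives the 160 bases before a start, 5′ to 3′ on the gene's strand, with a match to TGACNNNGC (the core of the antioxidant-type element bound by NFE2L1 with small MAF proteins) or to GAAANNGAA (the core of the interferon-stimulated response element) in capitals; a match on the opposite strand is printed as its reverse complement.
PSMB3, a standard beta subunit that fell (chr17:38752581-38752740, plus strand): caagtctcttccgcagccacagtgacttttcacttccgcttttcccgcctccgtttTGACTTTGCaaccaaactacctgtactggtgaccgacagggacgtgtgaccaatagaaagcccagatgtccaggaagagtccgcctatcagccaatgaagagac
PSMD3, a cap subunit that fell (chr17:39980647-39980806, plus strand): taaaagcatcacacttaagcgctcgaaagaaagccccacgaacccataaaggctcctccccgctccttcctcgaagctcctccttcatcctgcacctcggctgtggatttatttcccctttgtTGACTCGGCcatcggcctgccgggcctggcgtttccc
PSME4, an activator that fell (chr2:53970994-53971153, minus strand, match on the opposite strand): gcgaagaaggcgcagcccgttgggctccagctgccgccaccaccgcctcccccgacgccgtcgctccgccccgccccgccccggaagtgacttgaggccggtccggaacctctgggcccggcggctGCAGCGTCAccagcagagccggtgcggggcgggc
PSMB9, an immune subunit that rose (chr6:32854032-32854191, plus strand, match on the opposite strand): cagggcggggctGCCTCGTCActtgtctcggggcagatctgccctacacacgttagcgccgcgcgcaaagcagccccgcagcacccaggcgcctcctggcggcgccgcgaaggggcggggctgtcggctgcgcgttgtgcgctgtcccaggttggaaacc
PSME1, an activator that rose (chr14:24136034-24136193, plus strand): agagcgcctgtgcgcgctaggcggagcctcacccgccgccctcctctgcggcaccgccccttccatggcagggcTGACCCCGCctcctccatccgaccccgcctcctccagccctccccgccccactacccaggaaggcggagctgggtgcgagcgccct
PSMB10, an immune subunit that rose (chr16:67936851-67937010, minus strand): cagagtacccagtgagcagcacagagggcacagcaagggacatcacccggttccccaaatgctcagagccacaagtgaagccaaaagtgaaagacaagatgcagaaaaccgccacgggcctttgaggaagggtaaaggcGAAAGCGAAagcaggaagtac
PSME2, an activator that fell (chr14:24146611-24146770, minus strand): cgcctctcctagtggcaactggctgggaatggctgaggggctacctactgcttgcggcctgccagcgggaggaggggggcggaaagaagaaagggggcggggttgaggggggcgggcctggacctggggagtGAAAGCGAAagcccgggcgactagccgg
Within the 160 bases shown, the first 5 lines carry TGACNNNGC and the last 2 carry GAAANNGAA. The capitals of PSMB10 and PSME2 read the same letters although the genes changed in opposite directions. Outside the bases shown, the window of PSME2 also holds TGACNNNGC, and that of PSME1 also holds GAAANNGAA on the opposite strand. For every printed gene but PSME4 the start used by RefSeq lies inside the span that the count table gives the gene, and the printed bases of PSMB9, PSMB10 and PSME2 lie wholly within it.

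TGACNNNGC was found on either strand of the window in 15 of the 42 proteasome genes (35.7%), in 16.1% of all 27305 genes with a window and in 19.6% of the 9691 of those that were tested. By call it was in 12 of 34 genes that fell, 2 of 4 that rose and 1 of 2 that did not pass the test (the remaining 2, PSMA8 and PSMB11, were not tested), while among all tested genes it was in 19.8% of those lower and 19.7% of those higher. GAAANNGAA was in 8 of 42 (19%) against 9.9% of all genes and 9.3% of tested genes. It was in 3 of 4 members that rose (PSMB8, PSMB10 and PSME1) and 5 of 34 that fell, beside 11.4% of all tested genes that rose and 7.8% of those that fell. CCGGAA, the core bound by ETS factors, was in 22 of 42 (52.4%) against 20.1% of all genes and 35.4% of tested ones. It was in 20 of 34 genes that fell and 0 of 4 that rose, against 40.1% and 30.9% of all tested genes that fell and rose. TTCNNNGAA, the core bound by STAT factors, was in 8 of 42 (19% against 9.4% of all genes and 8.7% of tested genes), and CCAAT, bound by NF-Y, in 20 of 42 (47.6% against 39.7% and 43.2%). A TTCNNNGAA match can share letters with a CCGGAA or a GAAANNGAA match. These are matches of letters in fixed windows, with no test and no measurement of binding.

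The 3 immunoproteasome genes were all called higher after PRMT9 knockdown, against 33.4% of all genes tested. In each, both PRMT9 hairpin libraries lay above both controls, against 41.7% of all genes tested. PSMB8, the immune counterpart of the chymotrypsin-like subunit PSMB5, measured 98.1 and 98.6 CPM in the controls and 117 and 114 CPM after knockdown, a log2 fold change of 0.23 (SE 0.03, edgeR adjusted p = 3.11e-06). PSMB9, the immune counterpart of the caspase-like subunit PSMB6, rose from 15.4 and 14.7 CPM to 20.99 and 21.4 CPM (log2 fold change 0.49, SE 0.07, adjusted p = 5.59e-06). PSMB10, the immune counterpart of the trypsin-like subunit PSMB7, had 19.9 and 21.3 CPM in the controls and 22.2 and 24.9 CPM after knockdown, a change of 0.19 on the log2 scale (SE 0.07, adjusted p = 0.02). The PSMB10 call was lost with DESeq2 (adjusted p = 0.136), without control library 1 (0.129) and without PRMT9 hairpin library 2 (log2 fold change 0.11, adjusted p = 0.269). It was also lost with no expression filter (0.0668) and with limma on log2(RPKM + 1) (0.0766) or log2(RPKM + 0.1) (0.0743). In addition, 34.75% of the exon bases of PSMB10 lie under another annotated gene on the same strand, AC040162.1, which had 30, 24, 30 and 39 counts.

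The 3 standard catalytic subunits fell in the same libraries. PSMB6 went from 53.04 and 52.9 CPM in the controls to 28.7 and 30.05 CPM, a log2 fold change of -0.85 (SE 0.05, edgeR adjusted p = 4.56e-11), and was the standard beta subunit with the largest fall. PSMB5, which holds the site that bortezomib blocks, went from 78.6 and 77.3 CPM to 53.7 and 55.1 CPM (log2 fold change -0.52, SE 0.04, adjusted p = 1.42e-09). PSMB7 fell less, from 100.5 and 96.4 CPM to 83.5 and 83.8 CPM (log2 fold change -0.23, SE 0.03, adjusted p = 7.66e-06). None of these 3 pairs of groups overlapped, and 41.7% of all genes tested also had both PRMT9 hairpin libraries below both controls.

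Pairing each immune subunit with the standard subunit it replaces gave a shift in the same direction at all 3 sites. In the authors' RPKM (read counts scaled by exon length and library size), PSMB9 made up 12.04% and 11.62% of the summed RNA of PSMB9 and PSMB6 in the controls and 25.6% and 25.1% after knockdown, a difference of 13.5 percentage points. PSMB8 made up 52.3% and 52.9% of the PSMB8 and PSMB5 total in the controls and 65.7% and 64.6% after knockdown, a difference of 12.5 points. PSMB10 made up 16.0% and 17.6% of the PSMB10 and PSMB7 total and then 20.4% and 22.2%, a difference of 4.50 points. These shares depend on the exon lengths behind the RPKM: the length used for PSMB8 was 2006 bases, and the union of its exons in GENCODE release 29 is 2997 bases.

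As log2 ratios of CPM, which do not depend on length when libraries are compared, the differences were 1.34 for PSMB9 over PSMB6, 0.75 for PSMB8 over PSMB5 and 0.42 for PSMB10 over PSMB7. Averaged over the 3 pairs, the ratio was -1.27 and -1.22 with the control hairpin against -0.42 and -0.40 with the PRMT9 hairpin, a difference of 0.84. With 2 libraries in each group the exact two-sided permutation test could not go below p = 0.333, and that was its value. For the PSMB9 pair, both the rise of PSMB9 and the larger fall of PSMB6 enter the ratio.

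**Figure D2:**
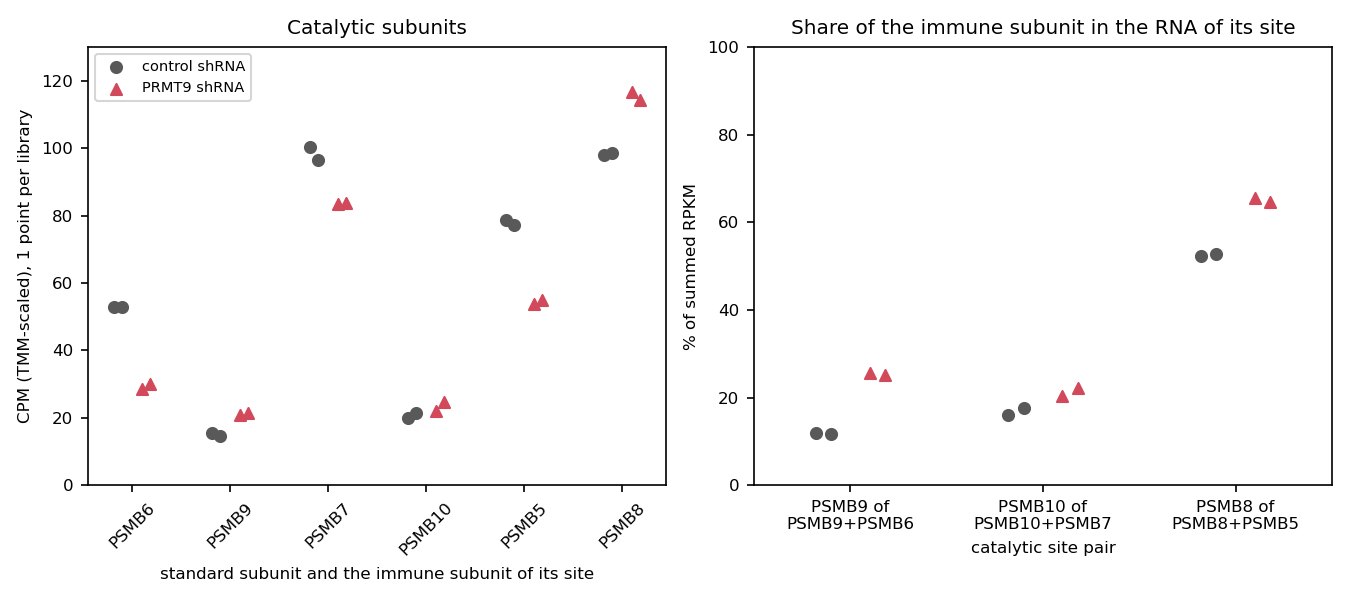
Left: CPM (TMM-scaled, linear axis) of the 3 standard catalytic subunits and their immune counterparts, 1 point per library. Right: percentage of each site's summed RPKM that came from the immune subunit; in all 3 pairs both PRMT9 hairpin libraries (triangles) lie above both control libraries (circles), by 13.5, 4.50 and 12.5 points from left to right.

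The alpha subunits form the outer rings that gate the core. Of 7 tested, 6 fell (85.7%, against 34.5% of all genes tested) and 1, PSMA6, did not pass the test. PSMA7 changed most, from 119 and 119.9 CPM in the controls to 75.7 and 74.9 CPM after knockdown (log2 fold change -0.67, SE 0.03, edgeR adjusted p = 5.69e-12). PSMA5 went from 109 and 111 CPM to 73.6 and 75.9 CPM (log2 fold change -0.56, SE 0.03, adjusted p = 1.14e-10). In both, the 2 libraries of a group lay close together and far from the other group. The other 4 that fell, PSMA1, PSMA2, PSMA3 and PSMA4, had log2 fold changes from -0.53 to -0.19. PSMA6 measured 4.99 and 4.09 CPM and then 3.91 and 4.48 CPM, with overlapping groups (log2 fold change -0.11, SE 0.15, 95% confidence interval -0.43 to 0.20, adjusted p = 0.506), and its sign turned without control library 1 (0.03). PSMA8, the alpha subunit known from testis, had 0 and 0 counts in the controls and 1 and 1 after knockdown and was not tested.

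The calls for 2 of these alpha subunits rested on single libraries or on the tool. PSMA1 had an adjusted p of 0.168 without control library 1, 0.0983 without PRMT9 hairpin library 2, 0.156 with DESeq2 and 0.189 with upper-quartile scaling, where its log2 fold change was -0.10. PSMA2 had 0.0626 without PRMT9 hairpin library 1 and 0.0634 with DESeq2. PSMA1, PSMA2 and PSMA6 also share 24.66%, 14.64% and 14.13% of their exon bases with another gene annotated on the same strand (AC018523.2, AC010132.3 and AL121594.1, each with at most 9 counts in a library). PSMA6 and PSMA2 had the lowest control levels of the tested alpha subunits, 0.698 and 0.946 RPKM, against 68.4 RPKM for PSMA7. How reads in shared exons were counted is not given in the sources used here, and the part of this overlap in the low values was not tested.

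The standard beta subunits all fell where tested, 7 of 7 against 34.5% of all genes tested, with log2 fold changes from -0.85 to -0.14. After PSMB6, the largest fall was in PSMB3, a subunit without a catalytic site, which went from 107 and 112 CPM in the controls to 72.1 and 69.7 CPM (log2 fold change -0.62, SE 0.04, edgeR adjusted p = 8.06e-11). PSMB2 and PSMB1, also without a catalytic site, changed by -0.60 and -0.34. PSMB4, the beta subunit with the most RNA per length (110.1 RPKM in the controls), changed least, by -0.14 (adjusted p = 8.69e-05), and with upper-quartile scaling its log2 fold change was -0.05 (adjusted p = 0.0783). PSMB11, the catalytic subunit known from the thymus cortex, had no count in any library and was not tested.

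The 6 ATPases, which form the ring that unfolds substrates, all fell, against 34.5% of all genes tested. Their log2 fold changes ran from -0.81 to -0.20. PSMC4 went from 90.6 and 91.3 CPM in the controls to 50.4 and 53.3 CPM after knockdown (log2 fold change -0.81, SE 0.04, edgeR adjusted p = 5.84e-12). PSMC3 went from 125 and 127 CPM to 82.5 and 84.6 CPM (log2 fold change -0.60, SE 0.03, adjusted p = 2.3e-11). PSMC5 and PSMC2 changed by -0.60 and -0.53, and PSMC6 and PSMC1 by -0.28 and -0.20. The groups of all 6 lay apart, with the PRMT9 hairpin libraries lower, which also held for 41.7% of all genes tested. The changes differed in size, although the subunits enter 1 ring in equal number. The exons of PSMC1 lie for 75.82% of their length under NRDE2 on the opposite strand, which itself changed by -0.24, and those of PSMC5 for 19.47% under FTSJ3, which changed by -0.57. Whether the counting used strand is not given in the sources used here. Of the 48 genes, 8 have over 10% of their exon bases under another gene on the opposite strand.

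Among the 11 non-ATPase subunits of the cap, 10 fell (90.9%, against 34.5% of all genes tested) and 1 rose (9.09%, against 33.4%). PSMD1, a scaffold at the base of the cap, showed the largest fall of all proteasome genes, from 172 and 175 CPM in the controls to 72.7 and 74.2 CPM, a log2 fold change of -1.24 (SE 0.03, edgeR adjusted p = 1.71e-15). PSMD11, a lid subunit, went from 104 and 111 CPM to 51.3 and 51.4 CPM (log2 fold change -1.07, SE 0.04, adjusted p = 2.17e-13). In both genes each control library exceeded each PRMT9 hairpin library more than 2-fold. PSMD2, the other large scaffold of the base, changed by -0.92, PSMD6 by -0.76, PSMD14, the enzyme that cuts ubiquitin off the substrate, by -0.69, and PSMD7, its partner, by -0.69. The other 4 that fell, the lid subunits PSMD3, PSMD8, PSMD12 and PSMD13, lay between -0.60 and -0.46. Of the exon bases of PSMD7, 30.73% lie under AC009120.2 on the opposite strand, which changed by -0.48.

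PSMD4, a ubiquitin receptor of the cap, was the exception. It had 165 and 170.3 CPM in the controls and 180.2 and 176 CPM after knockdown, with the groups apart and a log2 fold change of 0.09 (SE 0.03, edgeR adjusted p = 0.0103). The call did not hold with DESeq2 (adjusted p = 0.0699), without control library 1 (log2 fold change 0.05, adjusted p = 0.129), without PRMT9 hairpin library 1 (0.124), with no expression filter (0.0949) or with limma on log2(RPKM + 1) (0.1) and log2(RPKM + 0.1) (0.0967). With upper-quartile scaling the log2 fold change was 0.17 and passed the test (adjusted p = 1.98e-05). Its 95% confidence interval, 0.03 to 0.14, lies above those of the other 10 non-ATPase cap subunits, the nearest of which was PSMD3 with -0.52 to -0.39. Among the ATPases of the cap the nearest interval was that of PSMC1, -0.26 to -0.14. ADRM1, the second ubiquitin receptor of the cap, fell from 66.3 and 68.6 CPM to 38.03 and 36.9 CPM (log2 fold change -0.85, SE 0.04, adjusted p = 1.35e-11).

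The activators changed in different directions. PSME1 rose from 94.7 and 97.9 CPM in the controls to 119.9 and 121 CPM after knockdown (log2 fold change 0.33, SE 0.03, edgeR adjusted p = 5.81e-08). PSME2, with which PSME1 forms 1 mixed ring, fell from 109 and 111 CPM to 81.2 and 82.7 CPM (log2 fold change -0.42, SE 0.03, adjusted p = 2.64e-09). In RPKM the pair thus went from 54.1 for PSME1 and 30.7 for PSME2 to 67.6 and 22.8. The genes are neighbours on chromosome 14, PSME1 at 24136158 to 24138967 on the plus strand and PSME2 at 24143362 to 24147570 on the minus strand, with 4394 bases between their ends. Both genes are known to respond to interferon, and the PSME2 promoter printed above carries the same GAAANNGAA letters as that of PSMB10. In the full windows, PSME1 and PSME2 each had a match to GAAANNGAA and to TGACNNNGC.

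PSME3, the nuclear activator that forms a ring of its own, had the second largest fall of the proteasome genes, from 224 and 215 CPM to 95.8 and 94.5 CPM (log2 fold change -1.21, SE 0.03, edgeR adjusted p = 1.78e-15). PSME4, a nuclear activator that acts on acetylated histones, fell from 108 and 105 CPM to 58.1 and 59.9 CPM (log2 fold change -0.85, SE 0.03, adjusted p = 9.56e-13). PSMF1, named as an inhibitor of the core, fell less, from 94.01 and 89.5 CPM to 78.8 and 79.2 CPM (log2 fold change -0.22, SE 0.03, adjusted p = 2.89e-05). The groups did not overlap in any of the 5 genes of the class. Such gaps are common in these data, with 41.7% of all genes tested in each direction.

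Assembly chaperones guide the rings together and leave before the enzyme is complete. PSMG1 and PSMG2 act as a pair on the alpha ring. PSMG1 fell from 55.5 and 54.9 CPM in the controls to 32.4 and 30.3 CPM (log2 fold change -0.82, SE 0.05, edgeR adjusted p = 9.04e-11), and PSMG2 went from 71.4 and 75.1 CPM to 68.3 and 66.8 CPM (log2 fold change -0.12, SE 0.04, adjusted p = 0.0112). The PSMG2 call was lost without control library 2 (log2 fold change -0.06, adjusted p = 0.229), without PRMT9 hairpin library 2 (0.0965), with DESeq2 (0.118) and with upper-quartile scaling (log2 fold change -0.03, adjusted p = 0.518). It was also lost with no expression filter (0.0591), with a filter at 1 CPM (0.0519) and with limma on log2(RPKM + 1) (0.0618) or log2(RPKM + 0.1) (0.0592). PSMG3 and PSMG4 form the second alpha-ring pair. PSMG3 fell from 22.6 and 23.4 CPM to 11.1 and 10.9 CPM (log2 fold change -1.06, SE 0.07, adjusted p = 6.55e-10) and PSMG4 from 18.8 and 18.1 CPM to 14.6 and 15.4 CPM (log2 fold change -0.30, SE 0.07, adjusted p = 0.00112). The partners of a pair thus differed in size of change, -0.82 beside -0.12 and -1.06 beside -0.30 on the log2 scale, and the differences were not tested. On the opposite strand, other genes cover 16.69% of the exon bases of PSMG2, mostly CEP76, which changed by -0.91. For PSMG4 they cover 14.99%, mostly SLC22A23, which changed by -0.65. The part of this overlap in the values was not tested.

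The remaining chaperones, PSMD5, PSMD9 and PSMD10, bind ATPases while the base of the cap is built. PSMD10, also known as the oncoprotein gankyrin, fell from 28.5 and 27.8 CPM to 22.7 and 21.2 CPM (log2 fold change -0.36, SE 0.06, edgeR adjusted p = 3.77e-05). PSMD9 went from 3.54 and 3.18 CPM to 1.46 and 2.09 CPM (log2 fold change -0.91, SE 0.20, adjusted p = 6.63e-04). It had the lowest level of the tested proteasome genes, 0.382 RPKM in the controls, and 19.87% of its exon bases lie under other genes on the same strand. PSMD5 had 61.3 and 63.2 CPM and then 65.7 and 63.6 CPM, with the groups apart, and did not pass the test (log2 fold change 0.05, SE 0.04, 95% confidence interval -0.03 to 0.13, adjusted p = 0.226). With upper-quartile scaling it was called higher (0.14, adjusted p = 0.00343).

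**Figure D3:**
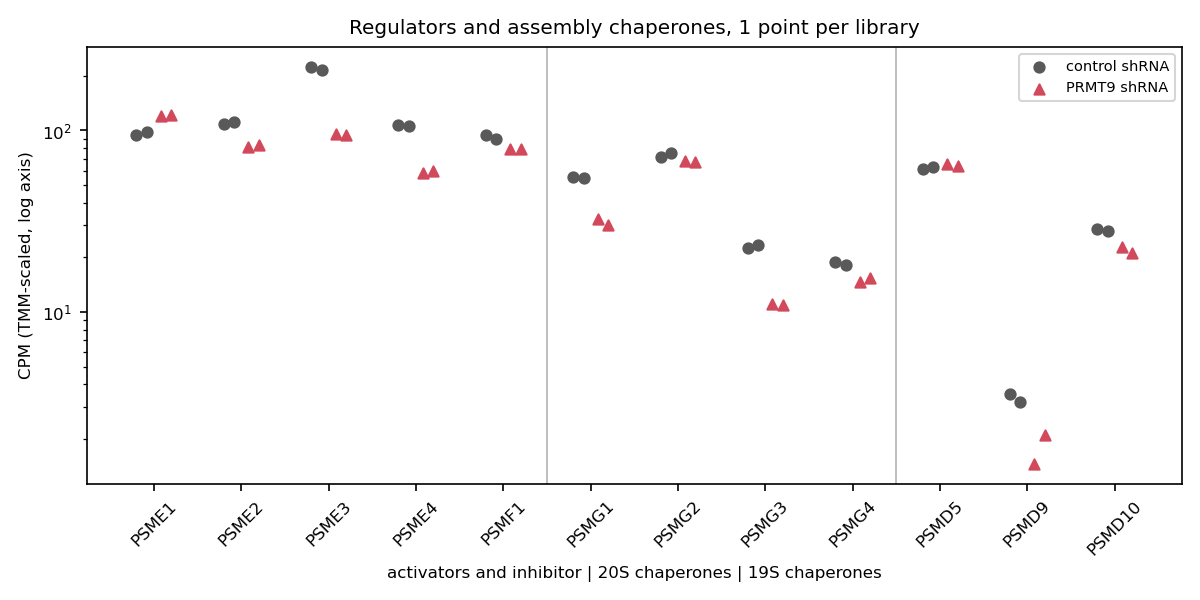
CPM (TMM-scaled, log axis) of the 5 activators and inhibitor, the 4 chaperones of the core and the 3 chaperones of the cap, 1 point per library. PSME1 is the only activator whose PRMT9 hairpin libraries (triangles) lie above the controls (circles); PSME3, PSME4, PSMG1 and PSMG3 show the widest gaps at high counts, and PSMD9 has few counts.

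Per length of exon, RNA levels differed widely between genes that contribute equally to the complex. In the controls, levels ran from 33.84 RPKM (PSMB2) to 110.1 RPKM (PSMB4) among standard beta subunits, from 13.4 RPKM (PSMC6) to 55.6 RPKM (PSMC3) among ATPases and from 11.1 RPKM (PSMD6) to 55.4 RPKM (PSMD4) among the other cap subunits. Chaperones had a median of 11.7 RPKM, lower than the 55.1, 26.4 and 28.03 RPKM of those 3 classes. Among the immune subunits PSMB8 was at 49.0 RPKM, PSMB10 at 11.1 RPKM and PSMB9 at 4.91 RPKM. After knockdown PSMB8 and PSME1 stood at 57.4 and 67.6 RPKM, and PSMB6 at 20.3 RPKM. For 46 of the 48 genes the exon length behind the RPKM equals the union of all exons in GENCODE release 29, so every alternative exon counts towards the length. The width of these ranges depends on those lengths, and the same genes lay closer together in CPM. In the controls PSMC6 and PSMC3 had 100.2 and 126.5 CPM, with 7482 and 2276 exon bases. PSMD6 and PSMD4 had 100.9 and 167.6 CPM, with 9123 and 3027 exon bases. PSMB2 and PSMB4 had 163.9 and 237.6 CPM, with 4843 and 2158 exon bases.

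**Figure D4:**
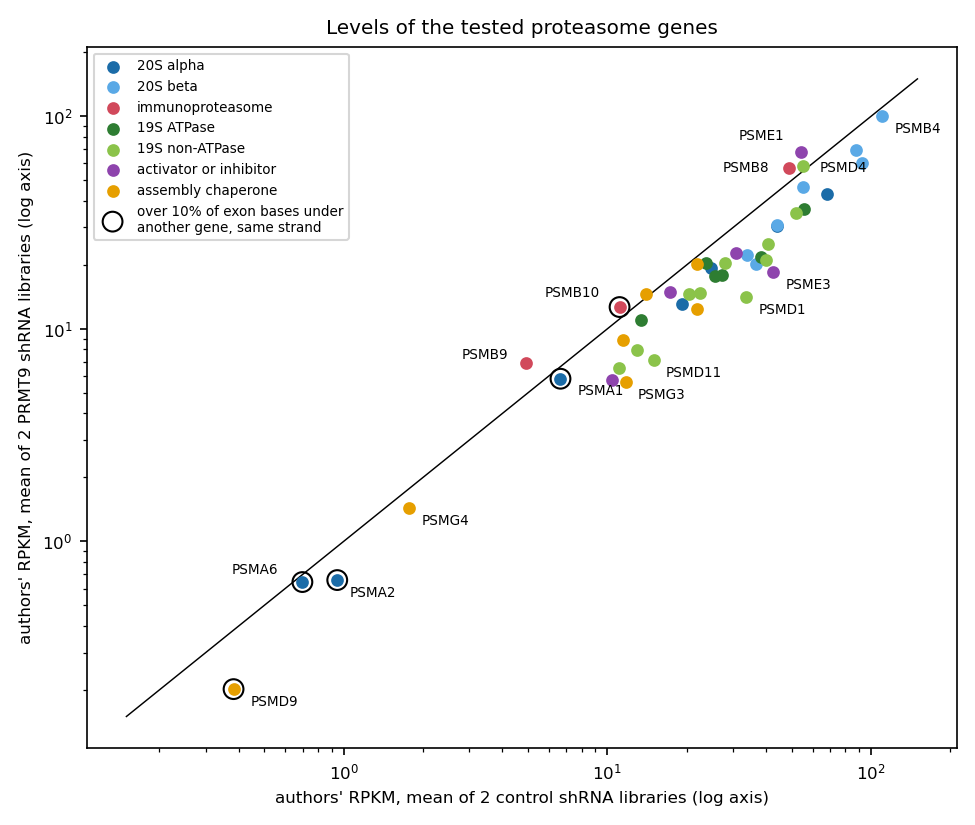
Mean authors' RPKM of the 46 tested proteasome genes in the 2 PRMT9 shRNA libraries (vertical, log axis) against the 2 control shRNA libraries (horizontal, log axis), coloured by class, with the line of equal level. Most points lie below the line; the immune subunits, PSME1, PSMD4 and PSMD5 lie on the other side, and the 5 ringed genes share over 10% of their exon bases with another gene on the same strand.

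The proteasome genes are spread over the genome, with 8 on chromosome 14 and 7 on chromosome 17. PSMB8 (chromosome 6, 32840717 to 32844703) and PSMB9 (32844136 to 32859585) lie in the MHC on opposite strands, and their spans in the count table share 568 bases. The peptide transporter gene TAP2 lies beside PSMB8. The other transporter gene, TAP1 (32845209 to 32853978), lies within the span of PSMB9 on the opposite strand, although its exons were not among those found to overlap PSMB9 exons. PSMB8, PSMB8-AS1, PSMB9 and TAP1 rose, by 0.23, 0.71, 0.49 and 0.39 on the log2 scale, and their neighbours TAP2 and HLA-DOB fell, by 0.93 and 0.50. PSMB8-AS1 covers 20.62% of the exon bases of PSMB8 on the opposite strand. It had 227 and 182 counts in the controls and 340 and 399 after knockdown, against 2967 and 2795, then 3606 and 3877, for PSMB8. Of the other antisense genes named after a proteasome gene and tested, PSMD5-AS1 and PSMG3-AS1 rose (0.31 and 0.84) and PSMD6-AS2 and PSMA3-AS1 did not pass the test (0.35 and 0.00). The 31 pseudogene rows of the family had at most 55 counts in a library.

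Genes that work with the proteasome but carry other names mostly fell too. In a list of 19 further subunits, receptors, deubiquitinases and assembly partners, 16 fell (84.2%), 1 rose (5.26%) and 2 did not pass the test. Of all genes tested, 34.5% fell and 33.4% rose. The median of the list was -0.40. USP14, a deubiquitinase on the cap, fell from 137 and 138 CPM to 84.5 and 84.9 CPM (log2 fold change -0.70, edgeR adjusted p = 1.56e-12). The ubiquitin shuttle UBQLN4 fell by 0.79, IPO9, an importin that carries proteasomes into the nucleus, by 0.58, and POMP, the maturation factor of the core, from 134 and 137 CPM to 91.4 and 95.2 CPM (-0.54, adjusted p = 9.25e-11). PAAF1, which binds free ATPases and keeps caps from joining cores, was the exception and rose from 18.02 and 18.1 CPM to 24.8 and 27.2 CPM (0.53, adjusted p = 1.67e-06). TXNL1 and AKIRIN2 did not pass the test.

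The list around NFE2L1, the factor that raises proteasome transcription, was mixed. Of 16 genes, 10 fell (62.5%), 4 rose (25%) and 2 did not pass the test, with a median of -0.19. Among all genes tested 34.5% fell and 33.4% rose. NFE2L1 itself had 106 and 103 CPM in the controls and 115 and 112 CPM after knockdown, a log2 fold change of 0.12 (SE 0.03, edgeR adjusted p = 0.00292), and its relative NFE2L2 changed by -0.15 (adjusted p = 0.00077). DDI2, the protease that cuts NFE2L1 into its active form, fell from 63.7 and 58.6 CPM to 47.2 and 49.5 CPM (-0.34, adjusted p = 5.01e-06). VCP, the ATPase that pulls NFE2L1 out of the endoplasmic reticulum, fell by 0.55, its cofactors UFD1L and NPLOC4 by 0.78 and 0.68, and SEL1L by 0.33. The others that rose were NGLY1, which strips sugars from NFE2L1, by 0.17, the ligase subunit BTRC by 0.40 and the small MAF gene MAFF by 1.54, from 1.09 to 3.18 CPM. These RNA values say nothing of the processing or activity of the NFE2L1 protein.

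Genes that supply ubiquitin and handle the peptides went in both directions. For comparison, 33.4% of all genes tested rose and 34.5% fell. Of 6 ubiquitin and E1 genes, 3 rose (50%), 2 fell (33.3%) and 1 did not pass the test, with a median of 0.05. Those that fell were the genes of the E1 enzymes that activate ubiquitin, UBA6 by 0.48 and UBA1 by 0.09. Of 8 cytosolic peptidases that trim proteasome products, 6 fell (75%), among them BLMH (-0.50), THOP1 (-0.40) and NLN (-0.36). In the same list 1 rose (12.5%), NPEPPS (0.72), and DPP3 did not pass the test. In the list of MHC class I antigen processing and its regulators, 7 of 12 rose (58.3%) and 4 fell (33.3%), with a median of 0.32. The share that fell was near that of all genes tested. B2M rose by 0.45 and TAP1 by 0.39, whereas TAP2 and NLRC5 fell by 0.93 and 0.46, ERAP1 by 0.19, and IRF1, a factor that drives immune subunit genes, by 0.14 (adjusted p = 0.00944).

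The CCT chaperonin is another large cytosolic complex measured in the same libraries. Of its 8 subunits 7 fell (87.5%, against 34.5% of all genes tested) and 1 rose (12.5%, against 33.4%). Their median was -0.43 on the log2 scale. CCT6A fell by 1.30, CCT5 and TCP1 by 0.61 each, CCT3 by 0.49, and CCT8 rose by 0.16. No test of the difference between this complex and the proteasome was made, and a fall of most subunits is therefore not shown to be particular to the proteasome.

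**Figure D5:**
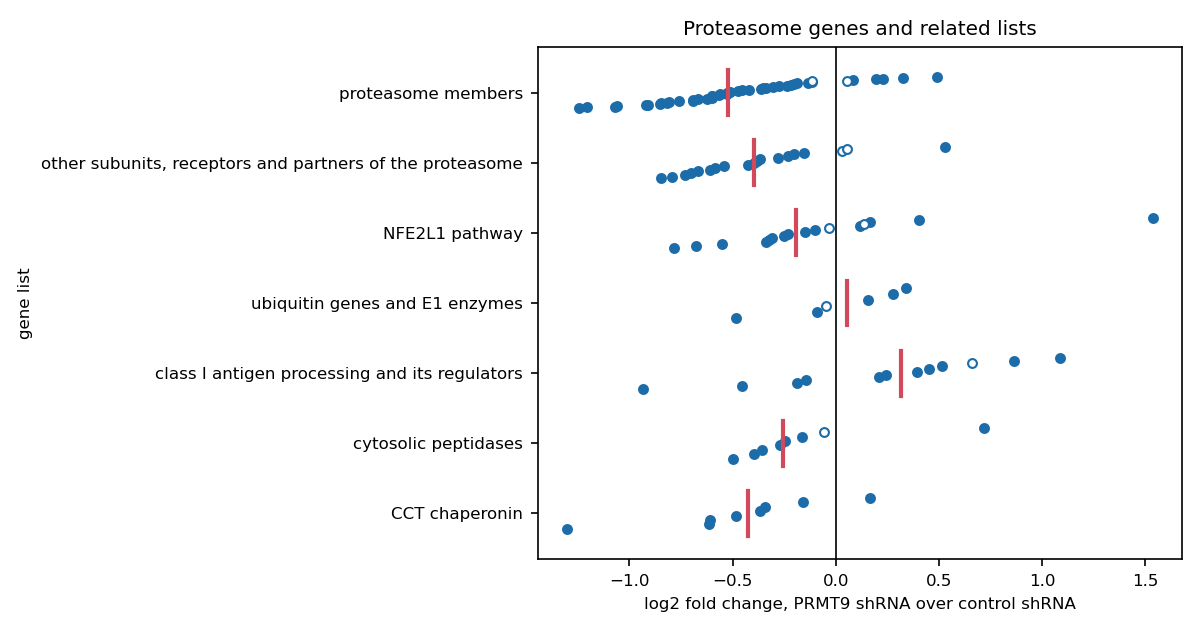
Log2 fold change (horizontal axis) of the tested proteasome genes and of 6 other gene lists (rows); 1 point per gene, filled where it passed the test, with small vertical offsets for sight only, and red bars at each list's median. The medians are -0.52 for the proteasome genes, -0.40, -0.19, 0.05, 0.32, -0.26 and -0.43 for the lists from top to bottom.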

How the data were processed

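The deposited values are the authors' raw read counts of each gene in the 4 libraries and their RPKM, on GRCh38. The submitters' processing notes list Trimmomatic 0.39, STAR 2.7.2a and SAMtools 1.10. Which program counted reads, whether it used strand and what it did with shared reads is not given in the sources used here. Every row of the count table names a gene, and no column of values per sample was left unused.

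From the deposited counts, genes were filtered with filterByExpr (minimum count 10) and tested with the quasi-likelihood test of edgeR 4.0.16 in R 4.3.3 (TMM scaling, robust estimation, a group term), with Benjamini-Hochberg adjustment over all 15193 genes and calls at an adjusted p below 0.05. SEs are the log2 fold change divided by the root of the F statistic. CPM values are TMM-scaled. The script was checked on simulated data in which few genes changed, equally up and down. That check does not bear on scaling or calls where most genes change, as in these data. Limma 3.58.1 and DESeq2 1.42.0 served as alternatives. Overlaps used GENCODE release 29.

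The proteasome genes and the other lists were chosen with earlier results of these data known. Values in every library were given for immune subunits and the subunits they replace, activators, chaperones, the 2 largest changes of each other class and any gene called against its class. From each other list up to 4 genes with the lowest adjusted p were named, plus a set of 10 regulators; further genes in counts of 5 or fewer were named after their values were seen. Some genes that this rule names are not reported here.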

Additional observations from a re-analysis of the deposited data

How the results depend on the processing

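The median log2 fold change of the tested proteasome genes, -0.52, was -0.43 with upper-quartile scaling, -0.51 with library totals only, -0.49 with a filter at 1 CPM and -0.48 in log2(RPKM + 1); leaving out 1 library at a time gave -0.55 to -0.50. The number of proteasome genes called higher, 5, was 3 with DESeq2, 3 with no filter beyond 1 count, 3 in both log2(RPKM + 1) and log2(RPKM + 0.1), 1 against a minimum change of 25%, and 3 to 5 without 1 library. Against that minimum, 3051 of all genes were higher and 2861 lower. With upper-quartile scaling 5933 of all genes were higher and 4443 lower. PSMA6 changed sign without control library 1 (0.032), within a range of -0.231 to 0.032 over the libraries left out. The causes were not tested, apart from fewer calls against a minimum change, which follow from its construction.

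A replicate block gave 5048 genes higher and 5259 lower, with 5 and 39 proteasome genes, a median of -0.52 and no change of call among the 46; same-numbered libraries did not deviate together (correlation -0.03 over 15193 genes), so the numbers do not establish a pairing. RLE scaling, library totals, limma-voom and summing pseudogene rows into their parents also changed none of the 46 calls. Without the 5 genes that share over 10% of their exon bases on the same strand, a setting chosen after seeing the data, 4 were higher and 36 lower, with a median of -0.53. The PSMB8, PSMB9 and PSMB10 ratio difference, 0.84, lay between 0.42 and 1.34 over its alternatives. Genes that did not reach about 10 counts in 2 libraries, as PSMA8, were not tested. A gene with fewer counts in 1 group only could still be tested.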
